A study of Homo sapiens with 24 samples.

Results

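The genes described here are CTNNB1, which encodes β-catenin, and 9 genes of the Wnt feedback loop and its transcriptional output, AXIN1, AXIN2, LGR5, NKD1, RNF43, ZNRF3, SP5, TBX3 and TCF7. They were chosen by name, as a list of 10 among the 58676 gene rows of each count table, and all 10 passed the filter on low counts that left 13136 genes for testing. HepG2 is a human liver cancer cell line that carries an in-frame deletion in the exon of CTNNB1 that holds the degradation signal, so that part of its β-catenin escapes the destruction complex. The cells were transfected with a non-targeting siRNA (siControl, AllStars negative control) or with pre-designed siRNA against IGF2BP1, IGF2BP2 or IGF2BP3 (siIGF2BP1, siIGF2BP2, siIGF2BP3), re-seeded, and collected at 0, 3 or 6 h of actinomycin D, which blocks transcription. Polyadenylated RNA was sequenced in 24 libraries, 2 in each of 12 groups, and every group, siControl included, had been transfected. The question was how the level and the half-life of these transcripts stood in each condition.

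In Wnt signaling, a destruction complex built on the scaffold AXIN marks β-catenin for degradation, and a Wnt ligand bound to Frizzled and LRP receptors stops this. Stable β-catenin then enters the nucleus and activates target genes with TCF/LEF factors. Many targets act back on the pathway: AXIN2 rebuilds the destruction complex, NKD1 binds Dishevelled, and RNF43 and ZNRF3 are membrane ubiquitin ligases that remove Frizzled from the cell surface. R-spondins held by LGR5 and its relatives neutralise both ligases. In the liver, this pathway sets the gene program of hepatocytes around the central vein.

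The sequence upstream of SP5 holds matches to DNA words of TCF/LEF factors, and binding in these cells was not tested. SP5 is a zinc finger transcription factor and a direct target of β-catenin in many cell types. The RefSeq promoter table (GRCh38.p14, 250 bases before to 50 after each start) held 7 promoters of 5 of the genes, SP5, CTNNB1, TCF7, AXIN1 and RNF43. They were searched on both strands for the TCF/LEF words CTTTGAA and CTTTGAT. SP5 had 3 matches, which started 148, 109 and 84 bases upstream of its start, and the other 6 promoters had 0. Among all 35116 promoters of the table, 6.86% had at least 1 match and 9 had at least 3. The 250 bases upstream of the SP5 start (chr2:170715087-170715336, plus strand) are given 5′ to 3′, with the matches in capitals (TTCAAAG is CTTTGAA on the other strand).
SP5 upstream: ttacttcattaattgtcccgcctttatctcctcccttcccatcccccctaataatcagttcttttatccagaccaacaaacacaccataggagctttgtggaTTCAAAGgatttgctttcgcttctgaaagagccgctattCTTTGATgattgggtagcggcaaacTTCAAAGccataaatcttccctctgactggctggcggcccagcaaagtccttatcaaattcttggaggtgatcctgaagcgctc

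The 3′ untranslated regions (UTRs) differed in AU-rich words, which are known as signals of fast mRNA decay. The word TATTTAT (read on the transcript's strand in the GENCODE canonical transcript, overlaps counted) was present in ZNRF3 (4), RNF43 (3), AXIN2 (2), NKD1 (2), LGR5 (1) and TBX3 (1), and it was not found in CTNNB1, AXIN1, SP5 or TCF7. For comparison, 32.0% of 19215 annotated 3′ UTRs, with a median length of 1099 bases, held it at least once. The UTRs with the word were all longer than this median, from 1267 bases in RNF43 to 15468 in NKD1. So were those of CTNNB1 (1101) and TCF7 (1907), which lacked it. Per kilobase, NKD1 held 0.129 and AXIN2 1.42. The matches in AXIN2, TBX3, ZNRF3 and RNF43, the genes with the word that fell most in the first 3 h of the transcription block, are printed 5′ to 3′ with the word in capitals (hg38). SP5 fell more than any of these over the same 3 h, and it held none.
AXIN2, chr17:65529740-65529768, minus strand: aaagcctgaacTATTTATtaaaaacatga
AXIN2, chr17:65529590-65529618, minus strand: atccttactgaTATTTATagaacagttga
TBX3, chr12:114670914-114670942, minus strand: attagacaaagTATTTATgtaattatttg
RNF43, chr17:58353741-58353769, minus strand: acccacatgggTATTTATatctgaaccag
RNF43, chr17:58353688-58353716, minus strand: gttaagaaataTATTTATttgctaatata
RNF43, chr17:58353676-58353700, minus strand: atttgctaataTATTTATccacaaa
ZNRF3, chr22:29055250-29055278, plus strand: ctggtcacttgTATTTATttattcattca
ZNRF3, chr22:29055254-29055282, plus strand: tcacttgtattTATTTATtcattcattca
ZNRF3, chr22:29057241-29057269, plus strand: tgttctcagaaTATTTATttactaatata
ZNRF3, chr22:29057257-29057285, plus strand: atttactaataTATTTATcttaagccatg
The other words searched on the transcript's strand were ATTTA, present in 68.6% of all 3′ UTRs and absent in AXIN1, and the Pumilio-type word TGTANATA, present in 25.8% of all and in LGR5 (4), TBX3 (3), ZNRF3 (2), AXIN1 (1), AXIN2 (1) and SP5 (1). Per kilobase, ATTTA was most frequent in LGR5 (4.44) and TBX3 (4.41).

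Gene reads per library ranged from 31843248 to 74252042, and the reads per member and library from 171 (SP5) to 54476 (NKD1). Replicates correlated with r of at least 0.991 on the log2 scale of CPM, counts scaled to the same number of gene reads in every library. Averaged over the time points, each siRNA target fell in its own knockdown, IGF2BP1 by 2.5, IGF2BP2 by 2.12 and IGF2BP3 by 1.79 on the log2 scale (edgeR quasi-likelihood test, Benjamini-Hochberg adjusted p 2.44e-46, 2.38e-40 and 1.07e-35). Liver markers were present in every library, with ALB at 10735 to 17356 CPM and TTR at 38.6 to 77.6 CPM, whereas PTPRC, CD68 and COL1A1, markers of other cell types, did not exceed 0.343 CPM and the endothelial marker PECAM1 was at 0.486 to 1.37 CPM. The study describes its replicates as independent, but neither the labels nor the methods say whether they came from separate transfections. The spread between these libraries, which enters the p-values, may thus be technical. The edgeR fits also share variance information across genes. The control is a single non-targeting reagent, and the knockdown reagents were not compared with a further siRNA of the same target.

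In siControl cells at 0 h, CTNNB1 and SP5 were the most abundant of the 10 per length of the canonical transcript, and RNF43 and TBX3 the least. CTNNB1 (chromosome 3, 41194741 to 41260096, plus strand in hg38, as are all positions here) was at 86.6 ± 0.628 CPM per kilobase of its canonical transcript (SD, n = 2). SP5 (chromosome 2, 170715337 to 170718078, plus) was at 71.2 ± 3.95 and NKD1 (chromosome 16, 50548396 to 50649249, plus) at 43.4 ± 0.422 CPM per kilobase. The NKD1 value rests on a canonical transcript of 17039 bases that belongs to a later annotation release than the counts. LGR5 (chromosome 12, 71439798 to 71586310, plus), TCF7 (chromosome 5, 134114681 to 134151865, plus) and AXIN1 (chromosome 16, 287440 to 352723, minus) followed at 23.2 ± 1.13, 19.8 ± 0.738 and 19.5 ± 0.0847 CPM per kilobase. AXIN2 (chromosome 17, 65528563 to 65561648, minus) and ZNRF3 (chromosome 22, 28883572 to 29057488, plus) were at 16.9 ± 0.815 and 16.1 ± 0.515. TBX3 (chromosome 12, 114670255 to 114684175, minus) and RNF43 (chromosome 17, 58353676 to 58417595, minus) were at 9.95 ± 0.0286 and 9.19 ± 0.105. The order depends on the length used. Per kilobase of all annotated exons, SP5 (70.3) and NKD1 (42.6) came before CTNNB1 (27.0), and TCF7 (6.46) was the lowest, next to RNF43 (6.56). On the canonical length, the libraries of TCF7 and AXIN1 overlapped in these values, as did those of AXIN2 and ZNRF3, and the other neighbours in the order did not. For RNF43, 71.0% of the canonical transcript is shared on the same strand with a readthrough transcript model that the count tables also list (0 to 20 reads), and for AXIN2 30.9% is shared with another such model (0 to 1 reads). How reads in shared exons were counted was not stated, so the levels of both genes against other genes are uncertain, while their comparisons between libraries rest on the same exons throughout.

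Knockdown of IGF2BP1 changed 5 of the 10 genes at 0 h, by modest amounts and in both directions. NKD1, LGR5, SP5 and ZNRF3 fell and TCF7 rose, where 15.9% of the 13136 tested genes were called in this comparison at an adjusted p under 0.05. In siIGF2BP2 cells LGR5 fell and TCF7 rose, 2 of 10 against 12.1% of all genes, and in siIGF2BP3 cells LGR5 and NKD1 fell, 2 of 10 against 9.39%. CTNNB1, AXIN1, AXIN2, RNF43 and TBX3 were not called at 0 h in any knockdown. All 10 genes were among the 9745 that averaged 5 CPM or more, of which 2111, 1625 and 1297 were called in siIGF2BP1, siIGF2BP2 and siIGF2BP3, a higher share than over all genes. The median log2 difference of the 10 genes was -0.05, -0.02 and 0.02 in siIGF2BP1, siIGF2BP2 and siIGF2BP3, beside 0.01, 0.02 and 0.00 over all tested genes. In such bulk samples, fewer cells with a transcript and less of it per cell cannot be told apart.

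**Figure D1:**
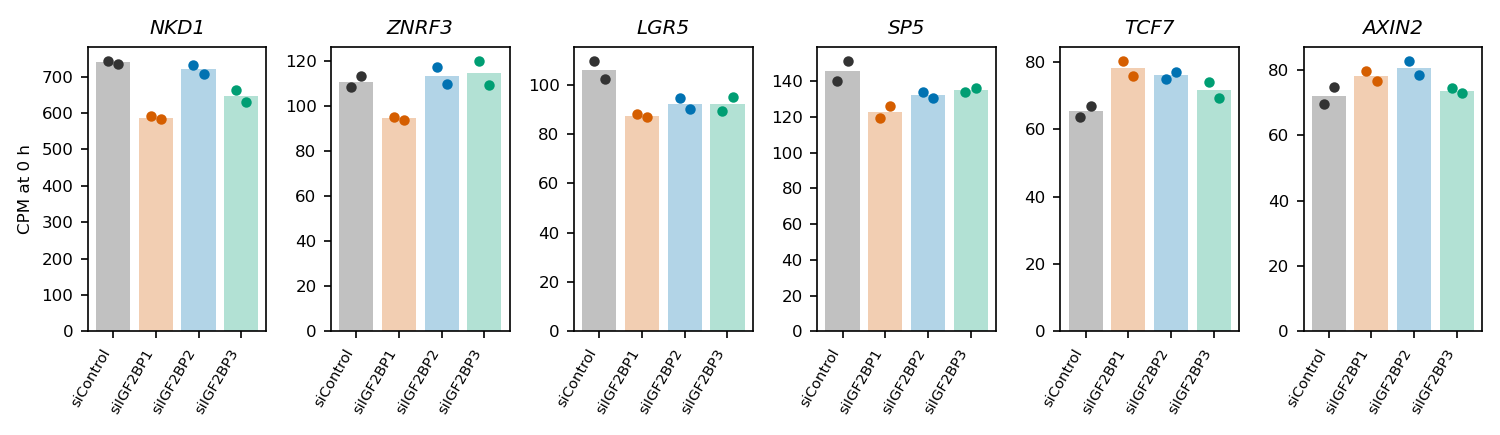
Level at 0 h in CPM (vertical axis, linear from 0) of 6 genes by condition, with bars at the mean of 2 libraries and a point for each library. The NKD1, ZNRF3 and LGR5 points of siIGF2BP1 lie below both siControl points, and those of TCF7 lie above both.

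NKD1, an inhibitor that binds Dishevelled, showed the largest fall among the 10 genes in siIGF2BP1 cells. Its level at 0 h was 743.8 and 733.7 CPM in siControl, 590.9 and 582.4 in siIGF2BP1, 732.2 and 707.3 in siIGF2BP2, and 663.8 and 630.3 in siIGF2BP3. The siIGF2BP1 and siIGF2BP3 libraries lay below all siControl and siIGF2BP2 libraries. NKD1 fell by 0.31 on the log2 scale in siIGF2BP1 (SE 0.038, adjusted p 6.91e-08, edgeR) and by 0.19 in siIGF2BP3 (SE 0.038, adjusted p 0.00077, edgeR), and its difference in siIGF2BP2 was -0.03 (SE 0.038, adjusted p 0.72, edgeR).

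ZNRF3 fell in siIGF2BP1 cells, while its close relative RNF43 did not pass the test. ZNRF3 was at 108.2 and 113.2 CPM in siControl at 0 h and at 95.03 and 93.79 CPM in siIGF2BP1, a log2 difference of -0.21 (SE 0.056, adjusted p 0.00673, edgeR). It was at 117.0 and 109.8 CPM in siIGF2BP2 and at 120.1 and 109.2 CPM in siIGF2BP3, which overlapped siControl. RNF43 stayed between 39.38 and 43.42 CPM in all 8 libraries at 0 h, and no difference from siControl exceeded 0.04 in size on the log2 scale.

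LGR5, a receptor for R-spondins and a marker of Wnt-driven stem cells, was the one gene called in all 3 knockdowns at 0 h. It was at 109.8 and 102.4 CPM in siControl, at 87.95 and 86.94 in siIGF2BP1, at 94.42 and 90.26 in siIGF2BP2 and at 89.17 and 95.15 in siIGF2BP3. All 6 knockdown libraries lay below both siControl libraries. The log2 differences were -0.26 (SE 0.047, adjusted p 7.42e-05), -0.19 (SE 0.046, adjusted p 0.00342) and -0.20 (SE 0.047, adjusted p 0.00333) by edgeR. The calls in siIGF2BP2 and siIGF2BP3 were lost without siControl replicate 1 (adjusted p 0.152 and 0.152 by edgeR), and also without siIGF2BP2 replicate 2 (0.0802) and without siIGF2BP3 replicate 1 (0.129), respectively.

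TCF7, a T-cell factor that binds DNA together with β-catenin and is also made as short isoforms that repress, rose in siIGF2BP1 and siIGF2BP2 cells. Its level at 0 h was 63.51 and 66.95 CPM in siControl, 80.32 and 75.65 in siIGF2BP1, 74.96 and 76.85 in siIGF2BP2, and 73.88 and 69.34 in siIGF2BP3. Every knockdown library was above both siControl libraries. The log2 differences were 0.28 (SE 0.049, adjusted p 6.14e-05), 0.22 (SE 0.049, adjusted p 0.00123) and, not passing the threshold, 0.14 (SE 0.050, adjusted p 0.0732) by edgeR. Gene counts do not separate the TCF7 isoforms.

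SP5 was at 140.1 and 151.5 CPM in siControl at 0 h, at 119.5 and 126.1 in siIGF2BP1, at 134.2 and 130.7 in siIGF2BP2 and at 133.9 and 136.2 in siIGF2BP3. All 6 knockdown libraries lay below both siControl libraries, and siIGF2BP1 passed the test with a log2 difference of -0.23 (SE 0.057, adjusted p 0.00356, edgeR). The SP5 and ZNRF3 calls in siIGF2BP1 were both lost without siControl replicate 2 (adjusted p 0.122 and 0.102, edgeR) or without siIGF2BP1 replicate 1 (0.121 and 0.0587), which leaves 3 of 10 genes called. TBX3, a T-box repressor known as a β-catenin target in liver tumors, was at 47.00 and 47.19 CPM in siControl and between 41.03 and 47.77 CPM in the knockdowns.

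The scaffold genes and CTNNB1 itself did not pass the test at 0 h. CTNNB1 was at 315.4 and 318.6 CPM in siControl and between 322.5 and 333.9 CPM in the 6 knockdown libraries, with log2 differences of 0.08, 0.08 and 0.04 (adjusted p 0.0881, 0.0919 and 0.568, edgeR). AXIN2, often used as a readout of β-catenin activity, was at 69.62 and 74.53 CPM in siControl and at 79.70 and 76.54 in siIGF2BP1, 82.76 and 78.35 in siIGF2BP2, and 74.30 and 72.89 in siIGF2BP3. Its log2 differences were 0.14, 0.17 and 0.03 (adjusted p 0.129, 0.0595 and 0.829, edgeR). AXIN1, which is not a feedback target, ranged from 68.09 to 76.03 CPM over the 8 libraries.

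When the scale was set by the spike-in RNA in place of TMM (trimmed mean of M values, which sets the typical gene to no change), LGR5 and NKD1 remained called in siIGF2BP1, TCF7 in siIGF2BP2 and none of the 10 in siIGF2BP3. Of the 13136 tested genes, 649, 732 and 471 were called on that scale in siIGF2BP1, siIGF2BP2 and siIGF2BP3. Gene reads per spike-in read differed between the siControl libraries at 0 h (762 and 666), and this spread enters every value on that scale.

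Differences between the knockdowns were tested directly. NKD1 and ZNRF3 were lower in siIGF2BP1 than in siIGF2BP2 (log2 difference -0.28, SE 0.038, adjusted p 4.23e-07, and -0.25, SE 0.056, adjusted p 0.00091, edgeR), 2 of 10 against 18.7% of all genes. The same genes were lower in siIGF2BP1 than in siIGF2BP3 (-0.13, adjusted p 0.0207, and -0.27, adjusted p 0.000783, edgeR), 2 of 10 against 14.3%. NKD1 was higher in siIGF2BP2 than in siIGF2BP3 (0.16, adjusted p 0.0048, edgeR), 1 of 10 against 9.19%. The count of 2 for siIGF2BP1 against siIGF2BP3 fell to 0 without siIGF2BP3 replicate 1 and to 1 without either siIGF2BP1 replicate at 0 h. The NKD1 call between siIGF2BP2 and siIGF2BP3 was lost without siIGF2BP2 replicate 1 or siIGF2BP3 replicate 2. LGR5 and TCF7 were not called in any of the 3 direct comparisons.

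With the 3 time points averaged, a comparison added after the data had been seen, each condition rested on 6 libraries and more of the 10 genes passed the test in siIGF2BP1, as did more of all genes. Per the methods, each transfected plate was re-seeded into 3 plates, so libraries of a condition may share a transfection and are not 6 independent units. With replicate numbers blocked within condition, 3949 of all genes were called in siIGF2BP1, fewer than the 5218 without that block. The values are on the TMM scale and stand against the typical gene at each time, and they mix the level at 0 h with the loss after it. NKD1, ZNRF3, SP5, LGR5 and TBX3 fell (log2 differences -0.32, -0.33, -0.32, -0.22 and -0.16), and TCF7, AXIN2, RNF43 and CTNNB1 rose (0.27, 0.21, 0.13 and 0.05), 9 of 10 called by edgeR, where 39.7% of all genes were. The adjusted p was 1.84e-08 for ZNRF3, 8.9e-05 for AXIN2, 0.0147 for TBX3, 0.0404 for RNF43 and 0.0218 for CTNNB1 (edgeR). The last 3 were lost without certain single libraries, TBX3 in 2, RNF43 in 9 and CTNNB1 in 5 of the 24 fits with 1 library left out. In siIGF2BP2 cells, LGR5 and TBX3 fell (-0.16 and -0.22) and TCF7 and AXIN1 rose (0.21 and 0.15), 4 of 10 against 33.8% of all genes. In siIGF2BP3 cells LGR5 and NKD1 fell (-0.15 and -0.18) and TCF7 rose (0.14), 3 of 10 against 32.3%. On the spike-in scale, 7 and 8 of the 10 were called in siIGF2BP2 and siIGF2BP3, and LGR5 in siIGF2BP3 turned to 0.03. Of the 13136 tested genes, 6307 and 7203 were called on that scale, most of them upward (5800 and 6946), with medians of 0.15 and 0.18.

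**Figure D2:**
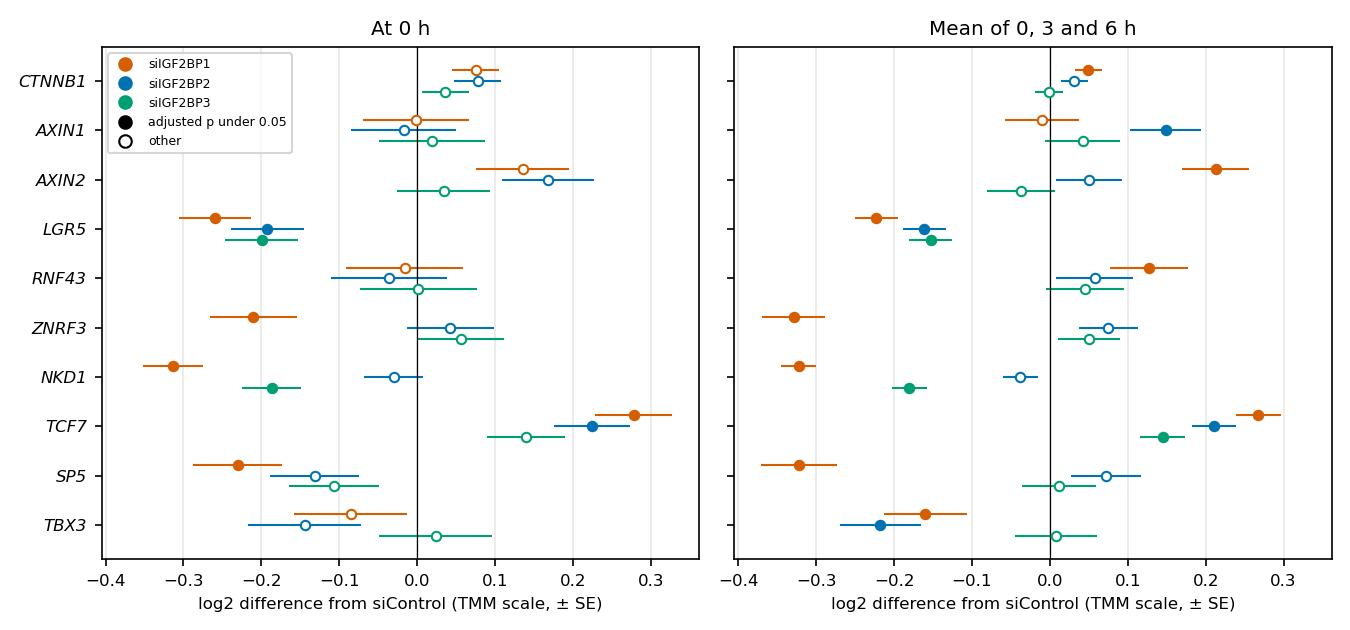
Log2 difference of each knockdown from siControl (horizontal axis, TMM scale, with bars of 1 SE from the edgeR fit) for the 10 genes, at 0 h (left) and averaged over 0, 3 and 6 h (right). Filled points passed an adjusted p of 0.05. LGR5 lies left of zero and TCF7 right of it in every knockdown, and the siIGF2BP1 points of ZNRF3 and NKD1 lie to the left of the siIGF2BP2 and siIGF2BP3 points.

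After the transcription block, the 10 transcripts split into 2 that were kept for hours and 8 that were lost faster than the typical gene. Levels from here on are scaled by the total of spike-in reads and given as a percentage of the mean at 0 h in the same condition. In siControl, CTNNB1 stood at 92.7 and 93.4% after 3 h and at 75.7 and 71.9% after 6 h. TCF7 stood at 85.0 and 89.7% after 3 h and at 73.8 and 64.9% after 6 h. LGR5 was at 66.1 and 63.7%, then at 43.6 and 40.4%. The median gene was at 75% after 3 h and at 55.3% after 6 h.

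The inhibitors and transcription factors fell further. NKD1 in siControl was at 48.9 and 49.1% after 3 h and at 32.2 and 26.5% after 6 h. ZNRF3 was at 19.6 and 19.9%, then at 8.53 and 7.11%. RNF43 was at 24.9 and 22.7%, then at 20.04 and 16.1%, so that it lost little in the second interval. AXIN1 was at 29.2 and 26.9%, then at 9.48 and 8.83%. AXIN2 was at 15.5 and 13.5%, then at 11.3 and 9.43%. TBX3 was at 16.8 and 18.7%, then at 8.54 and 8.46%, and SP5, the fastest of the 10, at 12.6 and 11.5%, then at 3.45 and 2.59%. For each of the 10 genes, the 0 h, 3 h and 6 h libraries of siControl did not overlap.

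**Figure D3:**
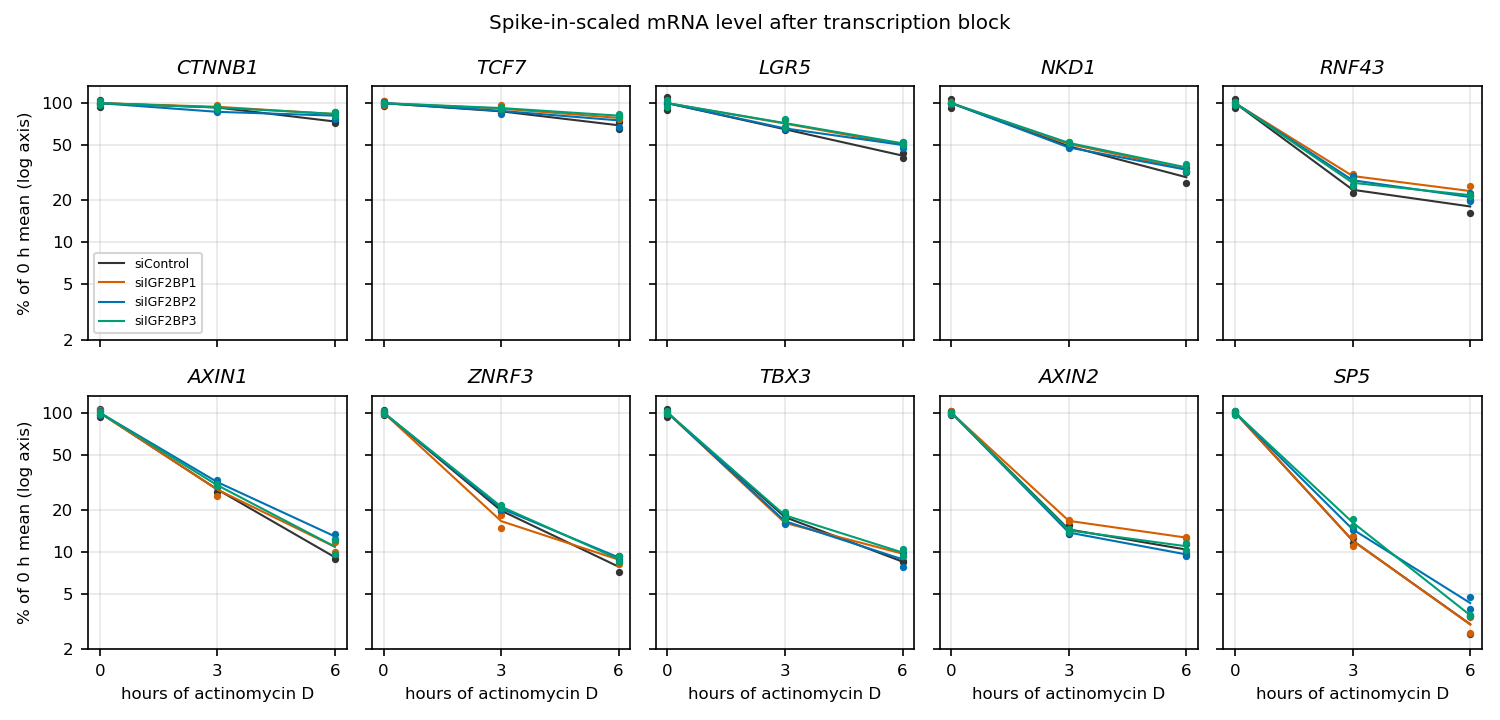
Spike-in-scaled level as a percentage of the 0 h mean of the same condition (vertical log axis) against hours of actinomycin D, for each gene, with a point for each library and lines through the means of 2. CTNNB1 and TCF7 stay above 60% at 6 h in every library, and SP5 ends below 5%.

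All 10 genes fell over 6 h in siControl in the straight-line edgeR fit, and so did 80.3% of all tested genes. The log2 change over 6 h ranged from -5.10 for SP5 (SE 0.261, adjusted p 1.22e-13) to -0.44 for CTNNB1 (SE 0.071, adjusted p 7.99e-06), with a median of -2.90 beside -0.88 over all genes. Under TMM scaling, which measures loss against the typical gene, CTNNB1 and TCF7 turned positive (0.43 and 0.34), while the other 8 genes still fell.

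Half-lives were computed from the mean of the decay rates at 3 and 6 h, with levels scaled by total spike-in reads, whereas the study fitted the spike-in amounts. In siControl the half-life was 18.6 h for CTNNB1 (12.6 to 37.3 h over the 8 choices of 1 library per time point), 13.1 h for TCF7 (9.49 to 20.8 h), 4.798 h for LGR5 (3.96 to 6.21 h) and 3.14 h for NKD1 (2.80 to 3.57 h). It was 1.82 h for RNF43 (1.66 to 2.003 h), 1.69 h for AXIN1 (1.59 to 1.80 h), 1.44 h for ZNRF3 (1.38 to 1.498 h), 1.40 h for TBX3 (1.34 to 1.48 h), 1.36 h for AXIN2 (1.29 to 1.43 h) and 1.08 h for SP5 (1.03 to 1.12 h). The ranges of CTNNB1 and TCF7 overlapped, as did those of RNF43 and AXIN1 and those of ZNRF3, TBX3 and AXIN2, so the order within each of these is not resolved. Among 12178 genes the median rate corresponded to 7.11 h, and 1.12% of the genes lost their transcript faster than SP5, 3.38% faster than AXIN2 and 6.80% faster than AXIN1. CTNNB1 sat on the slow side, with 74.4% of genes faster. In each of the 4 conditions, 8 of the 10 genes were shorter-lived than the median, all but CTNNB1 and TCF7.

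In the knockdowns the half-lives kept this pattern. CTNNB1 was at 27.6, 16.8 and 25.9 h in siIGF2BP1, siIGF2BP2 and siIGF2BP3, and the range of each (20.8 to 40.7, 14.1 to 20.6 and 17.0 to 54.7 h) overlapped that of siControl. TCF7 was at 19.5, 15.4 and 22.5 h. LGR5 was at 6.08, 5.45 and 6.28 h and NKD1 at 3.40, 3.24 and 3.50 h. AXIN1 was at 1.75, 1.92 and 1.80 h, AXIN2 at 1.47, 1.32 and 1.36 h, RNF43 at 2.15, 2.03 and 2.0 h, and ZNRF3 at 1.38, 1.49 and 1.504 h. TBX3 was at 1.39, 1.38 and 1.46 h and SP5 at 1.07, 1.19 and 1.19 h. Ranges that did not overlap siControl were those of AXIN2 and RNF43 in siIGF2BP1, AXIN1 and SP5 in siIGF2BP2, and SP5 in siIGF2BP3, each on the longer side. The median gene was also longer-lived in the knockdowns, at 8.76, 7.46 and 9.07 h, so a longer half-life there has to be read against that shift.

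**Figure D4:**
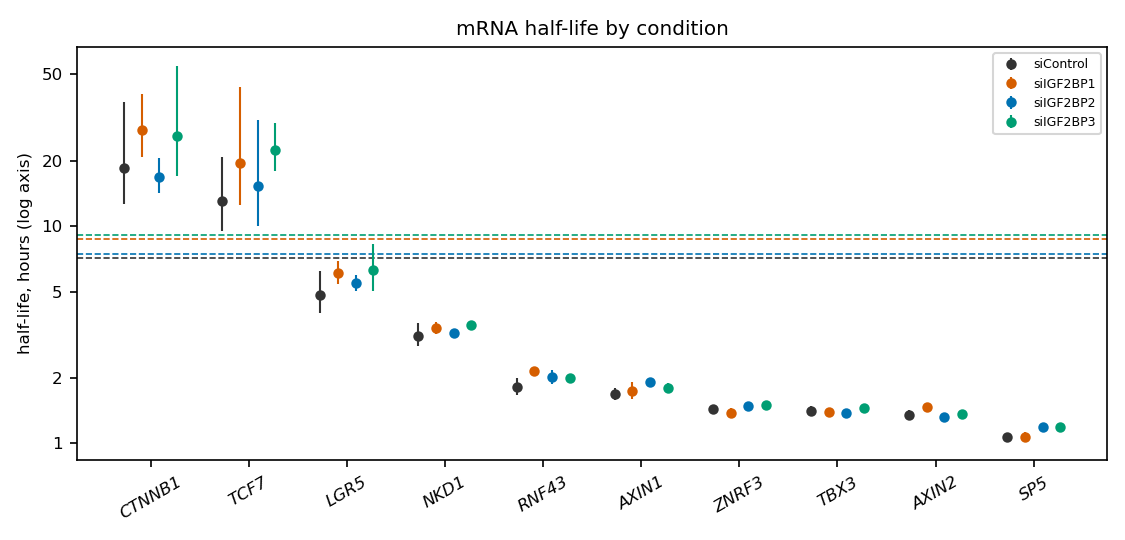
Half-life in hours (vertical log axis) of the 10 genes in the 4 conditions, with bars from the lowest to the highest of the 8 choices of 1 library per time point. Dashed lines mark the gene of median decay rate in each condition, from 7.11 h in siControl to 9.07 h in siIGF2BP3, and only CTNNB1 and TCF7 lie above them.

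No difference in decay between a knockdown and siControl passed the test for any of the 10 genes (edgeR, slopes over 6 h). Of all genes, siIGF2BP1 had 2 calls (0.0152%), siIGF2BP2 0 (0%) and siIGF2BP3 3 (0.0228%), beside 1436, 896 and 2113 genes at an unadjusted p under 0.05, and DESeq2 called none of the 10 either. The change was also taken between the 0 h and 6 h group means in place of a line. There, edgeR called 86 (0.655%), 72 (0.548%) and 195 (1.48%) of all genes and again none of the 10. The lowest adjusted p among the 10 was 0.0689 for SP5 in siIGF2BP2 (edgeR). With replicate numbers blocked within condition, however, this comparison called AXIN1 and SP5 in siIGF2BP2, and 172 of all genes. The absence of calls by group means thus depends on the fit. Across the 10 genes the log2 slope difference ran from -0.05 to 0.37 for siIGF2BP1, from -0.13 to 0.51 for siIGF2BP2 and from 0.04 to 0.29 for siIGF2BP3, and its medians were 0.18, 0.20 and 0.23 beside 0.19, 0.17 and 0.22 over all genes. The SE was 0.10 for CTNNB1 and 0.71 for AXIN2 in siIGF2BP1, and a straight line describes AXIN2 poorly, so smaller differences were not detectable there.

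The loss of 7 genes was faster in the first 3 h than in the second 3 h. Averaged over the 4 conditions, AXIN2 fell by 2.76 on the log2 scale from 0 to 3 h and by 0.44 from 3 to 6 h. TBX3 fell by 2.54 and then fell by 0.90. ZNRF3 fell by 2.36 and then fell by 1.17. RNF43 fell by 1.89 and then fell by 0.36, and SP5 fell by 2.88 and then fell by 1.99. The late change minus the early change was 2.32 for AXIN2 (SE 0.096), 1.65 for TBX3 (SE 0.108), 1.53 for RNF43 (SE 0.101), 1.20 for ZNRF3 (SE 0.087), 0.89 for SP5 (SE 0.090), 0.39 for NKD1 (SE 0.071) and 0.33 for AXIN1 (SE 0.089). These 7 of 10 passed the edgeR test (adjusted p from 1.44e-126 to 0.00124), where 25.5% of all genes passed in this direction with a median of 0.07 over all genes. CTNNB1, LGR5 and TCF7 did not (-0.06, 0.04 and -0.08). An error in the spike-in scale of a library is shared by all its genes and is not part of these p-values. Under TMM scaling the same 7 were called (AXIN2 2.18, AXIN1 0.19, adjusted p 7.55e-26 and 0.0184, edgeR), and CTNNB1 and TCF7 were called in the other direction (-0.20 and -0.22). The lowest adjusted p was larger under TMM although the SE of AXIN2 was smaller (0.066). The size of such p-values thus depends on the fit and is no measure of the spread between 2 libraries.

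For AXIN2, the half-life in siControl was 1.08 h when taken from 0 to 3 h and 6.23 h when taken from 3 to 6 h. RNF43 likewise went from 1.45 to 7.53 h. In the knockdowns the late value ranged from 5.74 to 7.91 h for AXIN2 and from 7.48 to 10.2 h for RNF43. SP5 went from 0.982 to 1.503 h and AXIN1 from 1.64 to 1.85 h, much closer to a single rate.

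The related genes AXIN2 and AXIN1, and RNF43 and ZNRF3, could be compared within each library, which needs no scale between libraries. Both pairs were picked after their values had been seen, so the ratios are a description with no test. The log2 ratio of AXIN2 to AXIN1 reads lay between -0.05 and 0.23 in the 8 libraries at 0 h, between -1.08 and -0.45 at 3 h and between -0.27 and 0.47 at 6 h, so the 3 h libraries did not overlap the others. The ratio fell by 1.00 from 0 to 3 h and rose by 0.99 from 3 to 6 h (mean of 4 conditions, same sign in 4 of 4). The log2 ratio of RNF43 to ZNRF3 reads lay between -1.56 and -1.22 at 0 h, between -1.22 and -0.25 at 3 h and between -0.35 and 0.39 at 6 h. It rose by 0.48 and then by 0.81, again in 4 of 4 conditions, and at each time the siIGF2BP1 libraries held the 2 highest values.

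**Figure D5:**
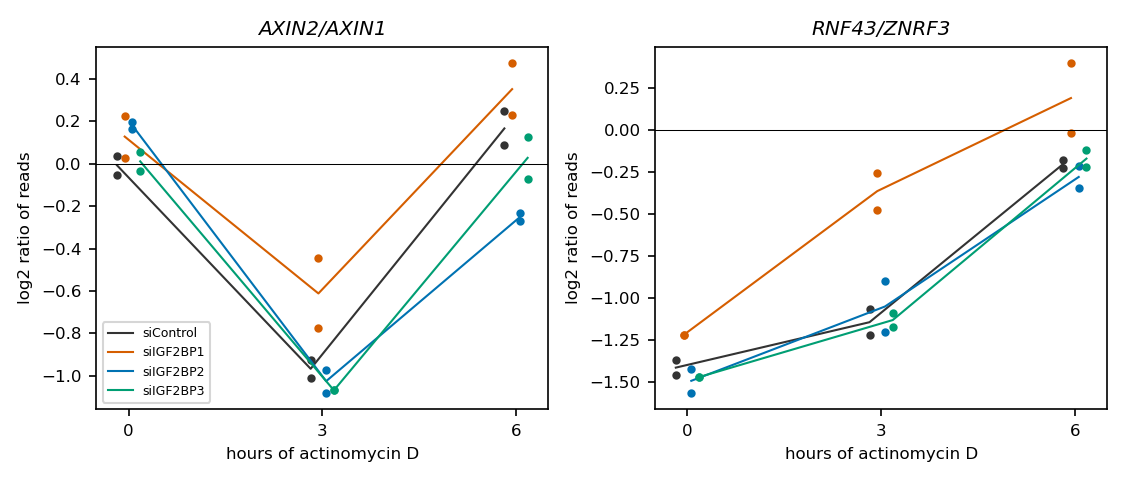
Log2 ratio of reads of AXIN2 to AXIN1 (left) and of RNF43 to ZNRF3 (right) against hours of actinomycin D, with a point for each library and lines through the means of 2; points are shifted sideways by condition. The AXIN2/AXIN1 ratio is lowest at 3 h in every condition and the RNF43/ZNRF3 ratio is highest at 6 h.

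Over the 12 group means of log2 CPM (TMM scale), the profiles most like that of AXIN2 among the 9745 genes that averaged 5 CPM or more were MIDEAS (Pearson r 0.998), NFKBIA (0.997) and RNF43 (0.997). Those most like CTNNB1 were TYK2, DUS1L and AURKAIP1 (0.997, 0.996 and 0.996). The groups share the time course, so these values mainly describe a like shape after actinomycin D and carry no test. With AXIN2, the r was 0.974 for TBX3, 0.941 for ZNRF3, 0.915 for SP5, 0.901 for AXIN1, 0.879 for NKD1, 0.667 for LGR5, -0.759 for TCF7 and -0.954 for CTNNB1.

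Of a list of 136 other genes of the Wnt pathway, 86 were tested. In siIGF2BP1 cells at 0 h 9 rose and 12 fell (24.4% called, beside 15.9% of all genes), with a median log2 difference of 0.02. The share over all genes includes many low ones. Among the 9745 genes that averaged 5 CPM or more, 2111, 1625 and 1297 were called in siIGF2BP1, siIGF2BP2 and siIGF2BP3, a higher share in each. Of 16 tested genes listed as other targets, 5 fell and 2 (JUN and RHBG) rose. Among the 5 was CCND1, which encodes cyclin D1 (307 and 315 CPM in siControl, 253 and 243 in siIGF2BP1, log2 difference -0.31, adjusted p 2.86e-08, edgeR). DKK1, a secreted inhibitor that binds LRP receptors, went from 242 and 244 CPM to 158 and 163 (-0.58, adjusted p 3.84e-13, edgeR). BCL9, a β-catenin coactivator, fell by 0.42 and CTNNBIP1, which blocks the binding of β-catenin to TCF, by 0.30 on the log2 scale. The Wnt receptor RYK rose by 0.53 (33.5 and 31.2 to 46.0 and 45.8 CPM, adjusted p 2.02e-09, edgeR), the phosphatase subunit PPP2R5A by 0.35 (a call lost without siIGF2BP1 replicate 1, adjusted p 0.0555 by edgeR), the corepressor subunit TBL1XR1 by 0.32 and the ammonium transporter RHBG by 0.31.

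In siIGF2BP2 cells 12 of the 86 rose and 2 fell (16.3% called, beside 12.1%). DKK1 rose there, to 416 and 403 CPM (log2 difference 0.76, adjusted p 8.81e-17, edgeR), as did RYK (0.68), the Frizzled receptor FZD4 (0.63) and RBX1 (0.38), a subunit of the ubiquitin ligase that acts on β-catenin. The glutamate transporter SLC1A2 fell by 0.38 and CTNNBIP1 by 0.12, but the CTNNBIP1 call was lost in 17 of the 24 fits with 1 library left out (adjusted p up to 0.253 by edgeR) and the SLC1A2 call in 3 (up to 0.122). In siIGF2BP3 cells 11 rose and 7 fell (20.9% called, beside 9.39%). RYK (0.54), RBX1 (0.39), PPP2R5A (0.31) and BTRC (0.31), the subunit that recognises β-catenin, rose, and the transcription factors SOX4 and JUN (-0.55 and -0.36), CTNNBIP1 (-0.26) and the junction protein JUP (-0.23) fell. The SOX4 call was lost without any 1 of the 4 libraries compared (adjusted p 0.0998 to 0.161 by edgeR), the JUP call in 3 such fits, PPP2R5A in 2 and JUN and BTRC in 1 each. Without siControl 0 h replicate 2, fewer of the 86 genes were called in siIGF2BP3, and calls over all genes were not compared for that fit. In the destruction complex and turnover group, 1 of 7 role groups of the list, 4 of 23 tested genes (17.4%) rose and none fell in siIGF2BP2 and again in siIGF2BP3. In siIGF2BP1 2 rose and 1 fell there, all by the edgeR test. That share was near those of all 86 genes. Among 15 tested receptor and membrane genes, 3, 3 and 2 rose in siIGF2BP1, siIGF2BP2 and siIGF2BP3 and none fell. These shares were 20%, 20% and 13.3%, beside 24.4%, 16.3% and 20.9% of the 86 genes. The median log2 differences of the receptor group were 0.05, 0.005 and -0.02. Of all 13136 tested genes, 1239, 874 and 647 rose and 854, 719 and 587 fell. No gene of the 86 was called in a slope difference by edgeR.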

How the data were processed

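Polyadenylated RNA of HepG2 cells was measured in 24 libraries, grouped by GEO's labels. Per the labels and the study's methods, the authors trimmed single-end reads with Trimmomatic 0.39, aligned them to hg38 with HISAT2 2.1.0 and deposited raw HTSeq counts per gene on GENCODE annotation, with 92 ERCC spike-in rows added per total RNA. The overlap mode of counting was not given in the sources used here. HTSeq summary rows (13.551% to 17.064% of reads) and 45 pseudoautosomal Y rows were left out, and 469 identifiers matched no symbol. Spike-ins were added to purified RNA, so they do not correct for cell number. Half-life ranges cover only the choice of library. SEs from the edgeR fits rest on these libraries alone and on variance information shared across genes. In the slope fits they also hold any departure from a straight line.

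From the counts, edgeR 4.0.16 (R 4.3.3) quasi-likelihood tests were fitted to genes with at least 1 CPM in at least 2 libraries, two-sided, with Benjamini-Hochberg adjustment over all tested genes and a threshold of 0.05. Levels used 12 group means with TMM scaling, curvature the same means with ERCC scaling, and decay a slope per condition with ERCC scaling. Half-life was ln2/K on ERCC-scaled group means. The decay rate K was averaged over the 3 h and the 6 h time point, each taken as the natural log of the level at 0 h over the level at that time, divided by the hours. Overlapping exons and UTRs were read from a later GENCODE release (Python 3.11.15). Replicates differed by more than sampling noise in every group (chi-square per degree of freedom 3.10 to 7.30). The scripts were tested on simulated data.

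The 10 genes, the pathway list and the tests were chosen with earlier results of these data known. All 10 are named. Of the pathway list, the called genes with the largest change were named, up to 4 in each direction per knockdown, along with DKK1, JUN and GLUL where they fell outside that rule, which were chosen after their values were seen. Alternatives were other scales, filters, DESeq2 1.42.0, subsets, a replicate block and leaving out each library.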

Additional observations from a re-analysis of the deposited data

Results flagged for a closer look

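The knockdowns differed from each other at 0 h for NKD1 and ZNRF3 when the difference itself was tested by edgeR. For NKD1 the log2 difference was -0.28 between siIGF2BP1 and siIGF2BP2, -0.13 between siIGF2BP1 and siIGF2BP3 and 0.16 between siIGF2BP2 and siIGF2BP3. For ZNRF3 it was -0.25 and -0.27 for siIGF2BP1 against siIGF2BP2 and siIGF2BP3.

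Among the other pathway genes, 3 moved in opposite directions in a pair of knockdowns, with the difference between the knockdowns passing the edgeR test as well. DKK1 fell in siIGF2BP1 and rose in siIGF2BP2 and siIGF2BP3 (158 and 163, 416 and 403, and 289 and 274 CPM, beside 242 and 244 CPM in siControl), and siIGF2BP1 was lower by a log2 difference of -1.34 and -0.80. JUN, an immediate early transcription factor and a Wnt target, rose in siIGF2BP1 and fell in siIGF2BP3 (94.1 and 89.5, and 58.5 and 58.9 CPM, beside 79.7 and 71.7 in siControl), a log2 difference of 0.66 between them. GLUL, the glutamine synthetase of pericentral hepatocytes, fell in siIGF2BP1 and rose in siIGF2BP3 (243 and 248, and 305 and 285 CPM, beside 272 and 274 in siControl), a log2 difference of -0.25. Leaving out 1 library lost the JUN call in siIGF2BP3 (siControl replicate 1, adjusted p 0.071 by edgeR) and in siIGF2BP1 (siControl replicate 2 or siIGF2BP1 replicate 1, 0.129 and 0.0624), and the GLUL call in siIGF2BP1 (siIGF2BP1 replicate 1, 0.123) and in siIGF2BP3 (either siControl replicate or siIGF2BP3 replicate 1, 0.141 to 0.483). On the ERCC scale the JUN and GLUL calls were lost too (adjusted p 0.0752 to 0.316 by edgeR), whereas no DKK1 call was lost in these fits. Each group had 2 libraries, so no group was large enough to look for a library far from the others.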

How the results depend on the processing

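On the ERCC scale the 0 h counts of the 10 genes were 2, 1 and 0 in siIGF2BP1, siIGF2BP2 and siIGF2BP3 and 0 for siIGF2BP2 against siIGF2BP3, the pathway counts in siIGF2BP1 and siIGF2BP3 were 7 and 9, and the counts over the 3 time points in siIGF2BP2 and siIGF2BP3 were 7 and 8. Of the 13136 tested genes, the ERCC scale called 649, 732 and 471 at 0 h and 382 for siIGF2BP2 against siIGF2BP3. Over the time points it called 6307 and 7203 in siIGF2BP2 and siIGF2BP3. There, the siIGF2BP3 differences over the time points turned to 0.18 for CTNNB1, 0.14 for AXIN2 and 0.026 for LGR5. With only the libraries compared, the 0 h counts were 5 in siIGF2BP2, 4 in siIGF2BP3, 4 for siIGF2BP1 against siIGF2BP3 and 2 for siIGF2BP2 against siIGF2BP3. Of all tested genes, these fits called 2383, 1700, 2327 and 1675, and the cause was not tested. The change over 6 h in siControl turned to 0.43 and 0.11 for CTNNB1 and to 0.34 and 0.018 for TCF7 under TMM and library-size scaling. The median over all tested genes was -0.016 under TMM and -0.34 under library-size scaling, so only TMM set the typical gene to about no change. Leaving out 1 library at a time gave 3 to 5, 1 to 3 and 1 to 2 genes at 0 h in the 3 knockdowns, 0 to 3 for siIGF2BP1 against siIGF2BP3, 0 to 1 for siIGF2BP2 against siIGF2BP3, and 8 to 15 and 7 to 20 pathway genes in siIGF2BP2 (lowest without siControl 0 h replicate 2) and siIGF2BP3 (lowest without the same library). With DESeq2, other filters and the other scales, every remaining count was within 1.5 times of its reported value, as were the counts of falling genes, curved genes, slope differences and short half-lives in all alternatives, those without 1 library included.

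On the TMM scale, replicate numbers did not pair the libraries (correlation of deviations -0.04 to 0.10 over 66 pairs of groups). That scale removes shifts shared by all genes of a library, so it cannot show whether the spike-in scale was paired. Gene reads per spike-in read were higher in replicate 1 than in replicate 2 at every time point in siControl and siIGF2BP1. In siIGF2BP2 they were lower at every time point, and in siIGF2BP3 the order changed. With a replicate block 5, 2 and 2 of the 10 genes were called at 0 h, and with the block within condition 4, 3 and 3. Of all tested genes, the first block called 2181, 1683 and 1316 and the second 1899, 1388 and 1093. The difference in change between the 0 h and 6 h group means called none of the 10 as reported, and with the block within condition it called AXIN1 and SP5 in siIGF2BP2 (log2 difference 0.50 and 0.52, adjusted p 0.0256 and 0.0213 by edgeR) and 364, 172 and 795 genes in all in the 3 knockdowns.

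The half-lives of AXIN2, RNF43, ZNRF3, TBX3 and SP5 in siControl moved by more than their spread from 0 to 3 h alone, from 0 to 6 h alone and by the straight-line slope (AXIN2 1.08, 1.84 and 1.81 h). From 3 to 6 h alone, CTNNB1 (8.97 h), TCF7 (9.02 h), NKD1 (4.05 h) and AXIN1 (1.85 h) left their ranges as well, and LGR5 (4.77 h) did not.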
